A study of Mus musculus with 6 samples.

Results

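The ligands of the VEGF and angiopoietin pathways and the neuropilin co-receptors were examined in tumor-bearing colon of mice treated with RG@M-γ-CD or PBS. The group was chosen by name and holds 9 genes: the VEGF ligands Vegfa, Vegfb, Vegfc and Pgf, the angiopoietins Angpt1 and Angpt2, the angiopoietin-like gene Angptl4, and the neuropilins Nrp1 and Nrp2. All gene probes on the array that carry 1 of these symbols were taken, which gave 23 of 56605 probes, and 9 of the 37325 gene names on the array. The tissue came from C57BL/6 mice, males bought at 6 to 8 weeks of age, in which the carcinogen AOM (10 µg/g) and DSS in the drinking water (2%), a salt that inflames the colon, had produced colitis-associated tumors. Both groups carried these tumors. The RG@M-γ-CD group (3 mice) received by mouth 30 µg/g of a complex of mannose-modified γ-cyclodextrin with regorafenib, an inhibitor of several kinases that include the VEGF and TIE2 receptors. This dose contained 10 µg/g of the drug. The PBS group (3 mice) received the buffer. Dosing went on for 21 days and the colons were taken 14 days later, so that the arrays show the tissue some time after the last dose, and each mouse was measured on 1 one-color Agilent array. The control groups given free drug or empty carrier were not analysed here.

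VEGF-A, VEGF-B and PlGF (the product of Pgf) are secreted factors that bind VEGFR1 (Flt1), while VEGF-A drives the growth of blood vessels through VEGFR2 (Kdr) and VEGF-C that of lymphatic vessels through VEGFR3 (Flt4). Angiopoietin-1 activates the endothelial receptor TIE2 (Tek) and steadies vessels, and angiopoietin-2, released by endothelial cells, usually opposes it. Angiopoietin-like 4 is a secreted inhibitor of lipoprotein lipase that responds to fasting, fatty acids and low oxygen. The neuropilins are membrane proteins that bind both VEGFs and class 3 semaphorins, and Nrp2 is known for its part in lymphatic growth.

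The values below are log2 intensities, with the 75th percentile of the same array set to 0. Each probe has its own brightness per molecule, and levels of different probes cannot be ranked against each other. A probe was tested when, in at least 1 group, the scanner software marked it as well above background on all 3 arrays, and each gene was read on its brightest tested probe. All 9 genes could be tested, among 19090 on the array, and 15 of their 23 probes. The share of gene probes well above background was 49.6% to 55.1% on the arrays, and 0 gene spots were saturated. The 10 intestinal epithelial markers were all detected, at a mean level between 5.93 and 6.56 on every array. GEO's labels make arrays 5, 6 and 7 the RG@M-γ-CD replicates 1, 2 and 3 and arrays 8, 10 and 11 the PBS replicates 1, 2 and 3. A heat map of the study places array 8 with 6 and 7, and array 5 with 10 and 11, without naming conditions. RG@M-γ-CD replicate 1 and PBS replicate 1 are therefore in doubt. The labels are followed here, and for part of the results values are added without these 2 arrays and for the trio of the heat map. RG@M-γ-CD replicates 1 and 2 were also the least alike of all pairs of arrays (Pearson r = 0.941 across the genes tested, which are not independent). Without RG@M-γ-CD replicate 1, 202 of 19466 genes reached an adjusted p below 0.05, against 0 with all 6 arrays as labelled and 0 without both arrays in doubt. A permutation test of 3 arrays against 3 cannot give an exact two-sided p below 0.1. RNA of whole tissue was measured, in which fewer cells of a type and less RNA per cell cannot be told apart.

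The probes of these genes lie at different places along their genes, with positions on mouse build mm9 as the array annotation gives them. Sequences of the probes on which the results turn are shown here, 5′ to 3′. The first is an internal probe of Vegfc (chr8:55244696-55244755, plus strand), which lay near the background.
Vegfc A_55_P2745057: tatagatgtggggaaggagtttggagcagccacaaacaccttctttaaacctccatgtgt
The next Vegfc probe is placed with its ends 108088 bases apart on the genome (chr8:55163262-55271349, plus strand), so it crosses at least 1 exon junction and passes over the place of the probe above. The capitals mark the bases TGA at its end, a stop codon if read in frame, and the reading frame was not tested.
Vegfc A_55_P2745054: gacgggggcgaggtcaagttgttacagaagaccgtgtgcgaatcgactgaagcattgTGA
One Nrp2 probe also crosses a junction (chr1:62818403-62829910, plus strand, ends 11508 bases apart). Of the brightest Nrp2 probe (chr1:62843061-62843120, plus strand) only a stretch of 30 bases is shown, with a run of 14 GT units in capitals.
Nrp2 A_55_P2735175: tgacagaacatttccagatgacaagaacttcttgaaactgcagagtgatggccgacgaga
Nrp2 A_55_P2800321: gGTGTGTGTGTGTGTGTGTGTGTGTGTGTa

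No ligand or neuropilin differed between RG@M-γ-CD and PBS beyond the spread between mice. In limma, 0 of the 9 genes passed an adjusted p of 0.05 and 0 reached an unadjusted p of 0.05. Over all genes tested these counts were 0 (0%) and 419 (2.19%). The adjusted p was 1.0 for each of the 9 genes and for every other gene named below, with all 6 arrays grouped as labelled. The 3 RG@M-γ-CD arrays did not lie apart from the 3 PBS arrays in any of the 9 genes, against 872 genes (4.57%) overall. The mean was higher in RG@M-γ-CD for 8 of the 9 genes, against 47.2% of all genes. Their median log2 change was 0.14, and that of all genes tested was -0.012. Without both arrays in doubt the medians were 0.13 and -0.088. For the heat map's trio of arrays 6, 7 and 8 against the other trio they were -0.025 and -0.12, with 4 of the 9 genes and 36.2% of all genes higher. PBS replicate 1 shared a row of the slide with the RG@M-γ-CD arrays, and PBS replicates 2 and 3 lay in the next row. Within the shared row, which holds 1 control array, the changes ran from -0.31 (Pgf) to 0.55 (Angpt1). There 4 of the 9 genes were higher, against 63.5% of all genes. The spread between the RG@M-γ-CD mice was larger than that between the PBS mice in 6 of the 9 genes, and the highest or the lowest of the 6 values lay on RG@M-γ-CD replicates 1, 2 and 3 in 5, 5 and 4 genes. In all these counts Nrp2 was read on a probe with a GT repeat, described below.

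**Figure D1:**
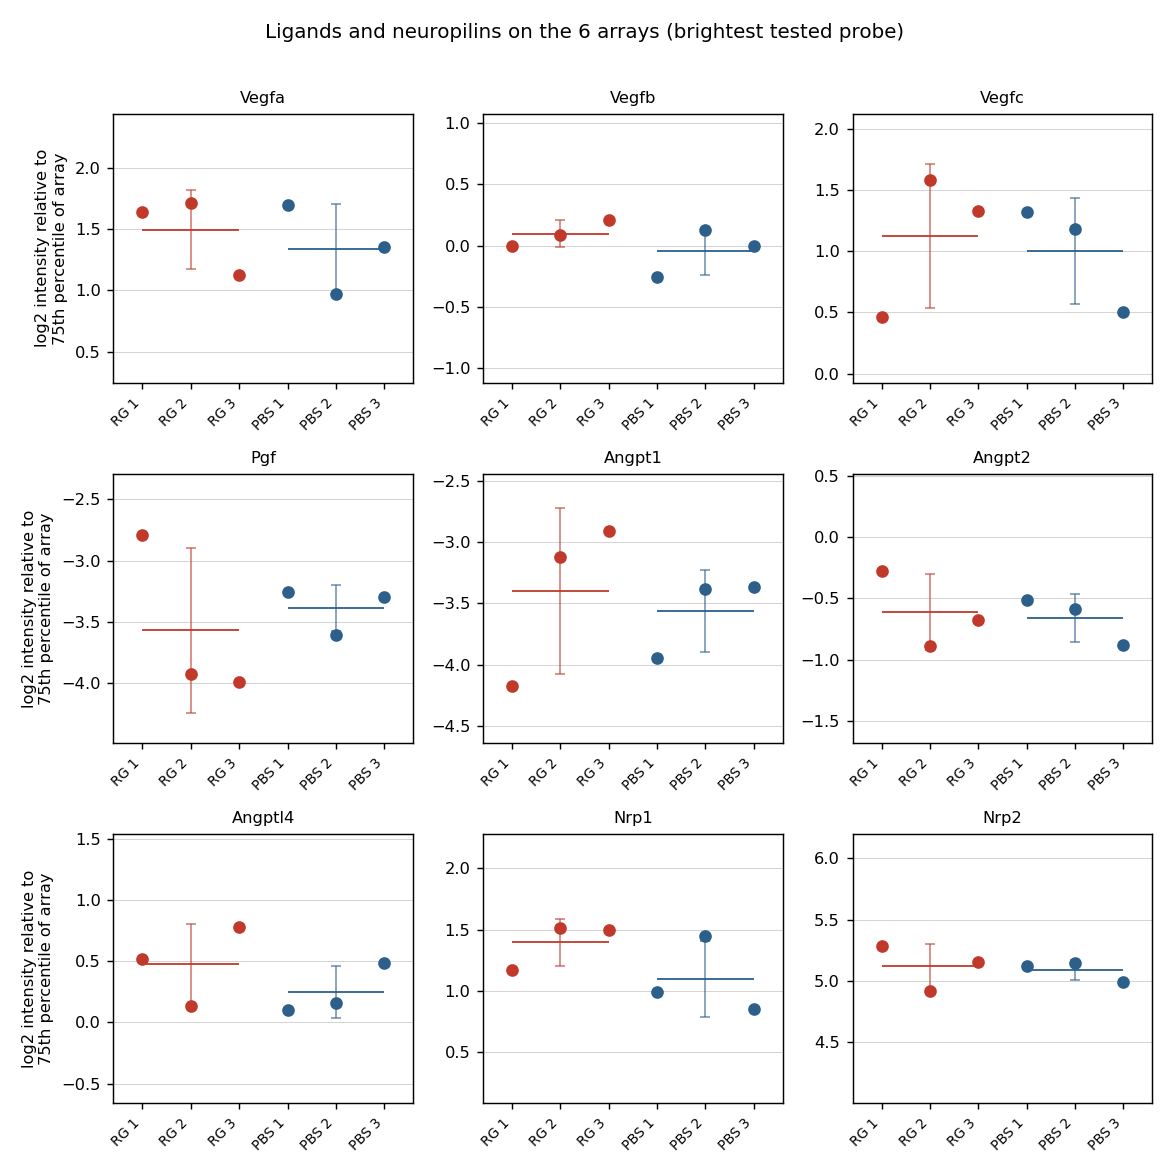
Level of each ligand and neuropilin on each array, as log2 intensity relative to the array's 75th percentile, on its brightest tested probe; every panel spans 2.2 log2 units. Red points are RG@M-γ-CD replicates 1 to 3 and blue points PBS replicates 1 to 3, horizontal lines are group means and vertical bars 1 SD (n = 3). The red and blue points overlap in all 9 panels, and RG@M-γ-CD replicate 1 stands away from replicates 2 and 3 for Vegfc, Pgf and Angpt1. The Nrp2 panel shows the probe with the GT repeat.

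Vegfa, the main ligand of VEGFR2, was measured at 1.64, 1.72 and 1.13 in RG@M-γ-CD replicates 1, 2 and 3 and at 1.69, 0.97 and 1.35 in PBS replicates 1, 2 and 3 (probe A_52_P638895, chr17:46154387-46154446). The group means were 1.49 ± 0.32 and 1.34 ± 0.36 (SD, n = 3), and the values of both groups interleaved. The log2 change was 0.15 (SE 0.26, 95% interval -0.46 to 0.77, unadjusted p = 0.569). Vegfa had 3 more probes. Probe A_51_P482552 gave -0.13 (95% interval -0.61 to 0.35) and probe A_52_P249424 gave -0.077 (95% interval -0.55 to 0.39). The sign of the Vegfa change thus depended on the probe, and the 3 intervals overlapped and each held 0. A probe named for 3 Vegfa transcripts (A_55_P2741794) was well above background on 1 array of each group, RG@M-γ-CD replicate 2 at -3.32 and PBS replicate 1 at -2.80, and was not tested.

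Vegfb, a VEGFR1 ligand linked to fatty acid handling, was among the steadiest of the 9 genes over the mice. It was measured at -0.0029, 0.083 and 0.21 in RG@M-γ-CD replicates 1 to 3 and at -0.26, 0.12 and -0.0060 in PBS replicates 1 to 3 (probe A_52_P436628, chr19:7057245-7057304). PBS replicate 1 was the lowest array and the other 5 lay between -0.0060 and 0.21. Its log2 change was 0.14 (SE 0.17, 95% interval -0.26 to 0.55).

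Vegfc, the lymphatic growth factor, was measured at 0.46, 1.58 and 1.33 in RG@M-γ-CD and at 1.32, 1.18 and 0.50 in PBS on its brightest probe (A_51_P433870, chr8:55271533-55271592). RG@M-γ-CD replicate 1 and PBS replicate 3 were low and the other 4 arrays high, so that the groups overlapped almost fully. The log2 change was 0.12 (SE 0.36, 95% interval -0.74 to 0.99). Without both arrays in doubt it was 0.62 (95% interval -0.15 to 1.38, unadjusted p = 0.0917, adjusted p = 0.488). For the heat map's trio of arrays 6, 7 and 8 it was 0.70 (95% interval 0.15 to 1.24, unadjusted p = 0.0199, adjusted p = 0.297). Vegfc was the 1 gene of the 9 below an unadjusted p of 0.05 in that grouping, against 3193 of 19298 genes tested. Neither side of the grouping is named as treated.

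Vegfc had 2 more probes. The junction probe A_55_P2745054 lies 183 bases before the brightest one at its 3′ end, and was measured at -1.91, -0.78 and -0.90 in RG@M-γ-CD and at -0.83, -1.29 and -1.82 in PBS, a log2 change of 0.12 (95% interval -0.81 to 1.04). It followed the brightest probe from array to array, and the difference between them stayed between -2.47 and -2.15. The array files name 0 RefSeq transcripts for this junction probe, while the brightest and the internal probe share 1. The internal probe A_55_P2745057 was well above background on all 3 PBS arrays, at -4.06, -3.62 and -4.47, and on 0 of the 3 RG@M-γ-CD arrays, at -5.02, -4.38 and -4.71. PBS replicate 3 lay below RG@M-γ-CD replicate 2, so that the groups overlapped. The limma change was -0.65 (95% interval -1.32 to 0.015, adjusted p = 1.0), and it was -0.24 with normexp background correction. With the dim arrays set to the lowest signal counted as well above background on them, the PBS mean was 1.22-fold above that of RG@M-γ-CD. This probe passed the filter only through the PBS arrays, and the bound was computed for the 6 arrays as labelled alone.

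Pgf, which encodes placental growth factor, was the 1 gene of the 9 with a lower mean in RG@M-γ-CD. It was measured at -2.79, -3.93 and -3.99 in RG@M-γ-CD and at -3.26, -3.61 and -3.30 in PBS (probe A_51_P318381, chr12:86508335-86510337). RG@M-γ-CD replicate 1 was the highest of all arrays and replicates 2 and 3 the lowest, on either side of the PBS arrays. The groups differed by a log2 change of -0.18 (SE 0.34, 95% interval -1.01 to 0.65). With RG@M-γ-CD replicate 1 left out, Pgf stood at -0.57 (SE 0.19, unadjusted p = 0.0229, adjusted p = 0.274), and without both arrays in doubt -0.51 (95% interval -1.03 to 0.018, adjusted p = 0.421).

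Angpt1, the TIE2 agonist, was measured at -4.17, -3.12 and -2.91 in RG@M-γ-CD and at -3.95, -3.38 and -3.37 in PBS (probe A_66_P118301, chr15:42256343-42256402). The order was the reverse of that of Pgf within RG@M-γ-CD: replicate 1 was the lowest of all arrays and replicates 2 and 3 the highest. The log2 change was 0.16 (SE 0.37, 95% interval -0.72 to 1.05), and it was 0.55 without RG@M-γ-CD replicate 1 (SE 0.24, unadjusted p = 0.0647, adjusted p = 0.449). Angpt1 and Pgf were both dim, at -2.79 or lower on every array, and with a normexp background correction the Angpt1 change was -0.0080.

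Angpt2, the antagonist made by endothelial cells, was measured at -0.28, -0.89 and -0.67 in RG@M-γ-CD and at -0.51, -0.59 and -0.88 in PBS (probe A_55_P2503142, chr8:18690323-18690382). The means were -0.61 ± 0.31 and -0.66 ± 0.20 (SD, n = 3), and the log2 change was 0.047 (SE 0.21, 95% interval -0.47 to 0.56). Its second probe, A_55_P2892835, was well above background on PBS replicate 3 only, at -4.13, while the other 5 arrays lay between -6.91 and -6.29, and it was not tested.

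Angptl4 was measured at 0.51, 0.13 and 0.78 in RG@M-γ-CD and at 0.10, 0.15 and 0.49 in PBS (probe A_51_P338443, chr17:33911880-33911939). RG@M-γ-CD replicate 3 was the highest array, and RG@M-γ-CD replicate 2 lay among the 2 lowest PBS arrays. A log2 change of 0.23 was fitted (SE 0.22, 95% interval -0.30 to 0.76, unadjusted p = 0.342).

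Nrp1 had the largest change of the 9 genes on the brightest probes, with an interval that held 0. It was measured at 1.17, 1.52 and 1.498 in RG@M-γ-CD and at 0.99, 1.45 and 0.85 in PBS (probe A_55_P2830615, chr8:131027137-131027196). PBS replicate 2 lay with RG@M-γ-CD replicates 2 and 3, and the other two PBS arrays were lower than every RG@M-γ-CD array. The log2 change was 0.30 (SE 0.21, 95% interval -0.21 to 0.82, unadjusted p = 0.204), which placed Nrp1 2102nd by p among the genes tested. A second probe 1109 bases further along the genome, A_65_P18547, gave 0.31 (95% interval -0.22 to 0.84), and the difference between both probes stayed between -2.65 and -2.37 on all arrays. The remaining 5 Nrp1 probes were not tested. Of these, A_65_P18472 was well above background on 2 RG@M-γ-CD arrays and 1 PBS array, and the other four on 0 arrays.

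The Nrp2 probes disagreed as well. On the brightest probe (A_55_P2800321), the gene was measured at 5.28, 4.92 and 5.16 in RG@M-γ-CD and at 5.12, 5.15 and 4.99 in PBS, with a log2 change of 0.031 (SE 0.16, 95% interval -0.36 to 0.42). The 6 values spanned 0.36, and 12.2% of all genes tested spanned less. Probe A_52_P93910, 22008 bases further along (chr1:62865129-62865188), was measured at 2.68, 3.66 and 3.57 in RG@M-γ-CD and at 2.21, 2.83 and 2.84 in PBS. It spanned 1.45, with RG@M-γ-CD replicates 2 and 3 the highest arrays and RG@M-γ-CD replicate 1 within the PBS range. Its log2 change was 0.68 (SE 0.33, 95% interval -0.11 to 1.46, unadjusted p = 0.0792), a fit across all 28291 probes tested. Leaving out RG@M-γ-CD replicate 1 gave 0.99 (unadjusted p = 0.00861, adjusted p = 0.208), leaving out both arrays in doubt 0.78 (adjusted p = 0.245), and the heat map's trio of arrays 6, 7 and 8 gave 0.36 (adjusted p = 0.579). The level of A_52_P93910 less that of the brightest probe was -2.60, -1.26 and -1.59 in RG@M-γ-CD and -2.92, -2.32 and -2.16 in PBS, so that the groups overlapped. The array files name 4 RefSeq transcripts for probe A_52_P93910 and 2 for the brightest probe, and none is shared.

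The brightest Nrp2 probe is unlike the others in its letters. The 14 GT units shown above fill 28 of its 60 bases. On the array 48 of the 56605 gene probes (0.0848%) held at least 10 GT or TG units in a row on the printed strand, and all 48 were well above background on all 6 arrays, against 46.9% of all gene probes. Their values varied little: the median range over the 6 arrays was 0.43, against 0.70 for all probes well above background on all arrays. The median level of these 48 probes over the 6 arrays was 5.20, against -3.95 for all gene probes. Whether the signal of the brightest probe comes from Nrp2 transcripts was not tested. The Nrp2 junction probe A_55_P2735175 was well above background on 2 RG@M-γ-CD arrays and 1 PBS array, at values from -5.25 to -2.41, and was not tested. The array annotation names the same 2 RefSeq transcripts for this junction probe and for the brightest probe, which lay between 4.92 and 5.28.

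**Figure D2:**
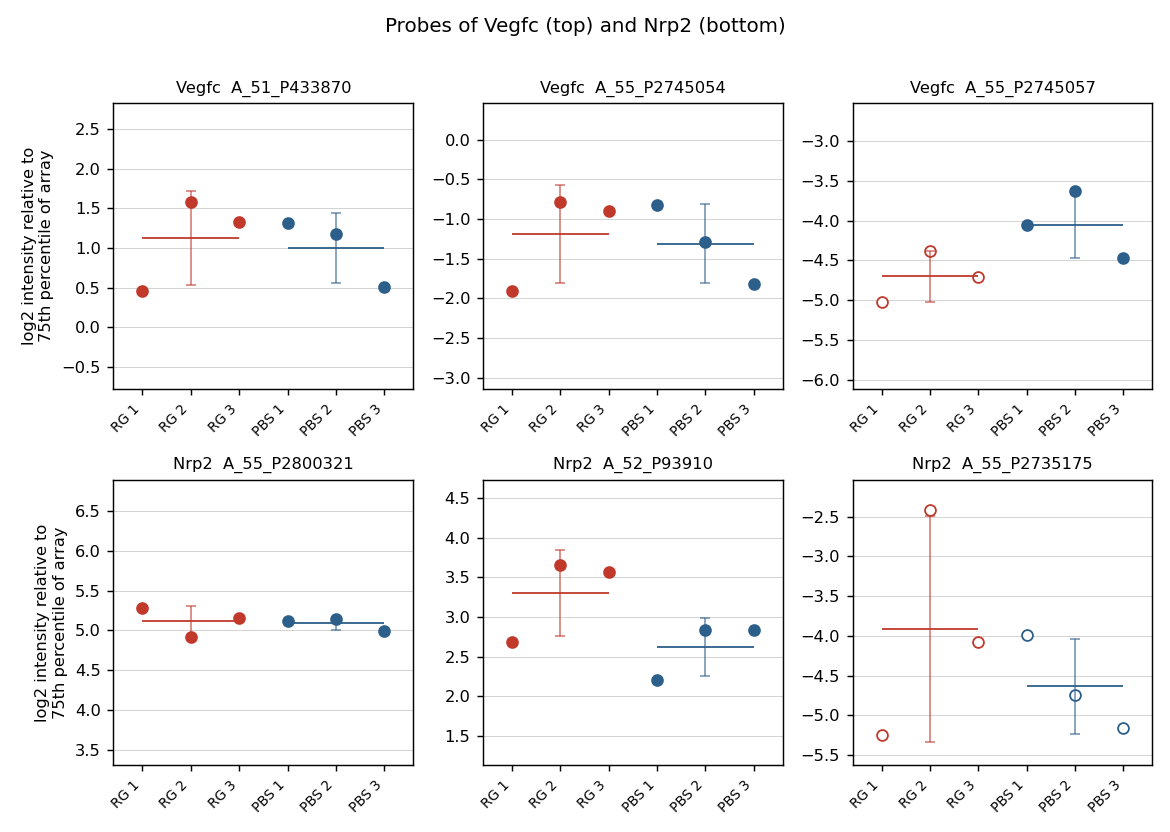
Level of each probe of Vegfc (top row) and Nrp2 (bottom row) on each array, as log2 intensity relative to the array's 75th percentile; every panel spans 3.6 log2 units. Red points are RG@M-γ-CD, blue points PBS, lines the group means and bars 1 SD (n = 3), and open points mark a group in which the probe was not well above background on all 3 arrays. Vegfc probes A_51_P433870 and A_55_P2745054 share one pattern, A_55_P2745057 has open points for RG@M-γ-CD, and Nrp2 probe A_55_P2800321 is nearly flat while A_52_P93910 spans 1.45.

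**Figure D3:**
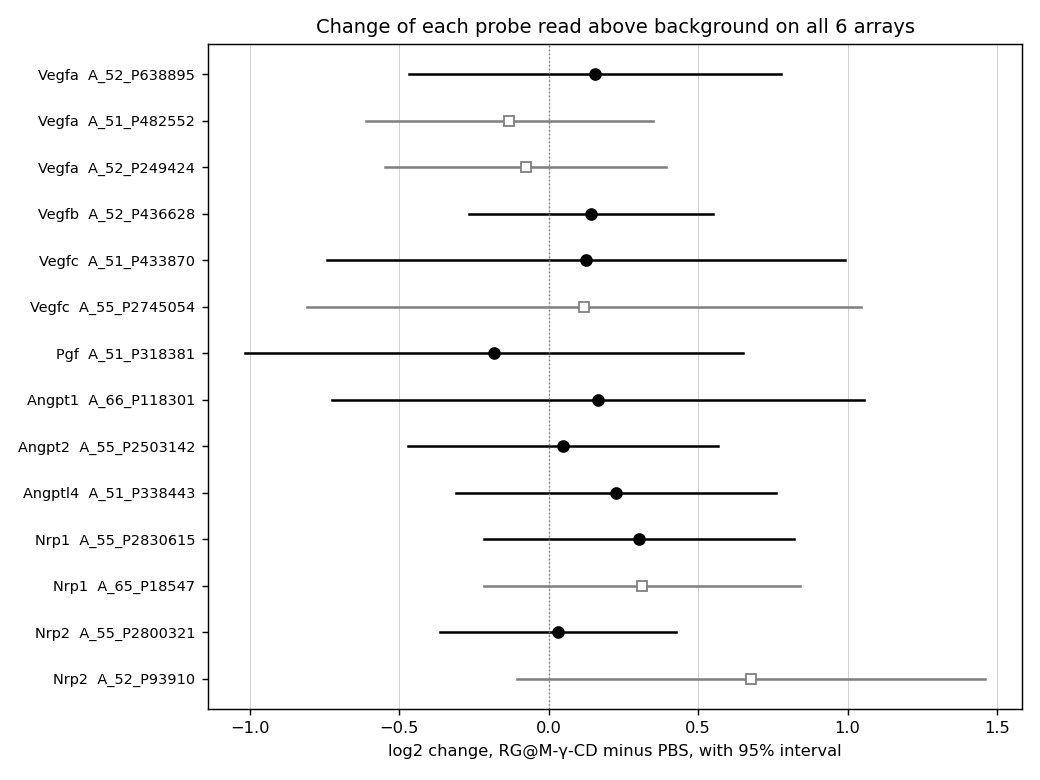
Log2 change, RG@M-γ-CD minus PBS, with its 95% interval from limma, for the 14 probes of the ligands and neuropilins that were well above background on all 6 arrays. Filled circles are the brightest probe of each gene and open squares the others; all 14 intervals hold 0, and the change farthest from 0 is that of Nrp2 probe A_52_P93910 (0.68).

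The receptors of these ligands were higher in the mean in RG@M-γ-CD, all 4 of those tested, with a median log2 change of 0.43. Where the median of a list turned its sign or moved by over 1.5 times, its values without both arrays in doubt and for the heat map's trio follow in brackets, in this order. Tek, the angiopoietin receptor TIE2, was measured at -2.56, -1.91 and -2.32 in RG@M-γ-CD and at -2.99, -2.66 and -3.29 in PBS. The groups did not overlap, as in 4.57% of all genes in either direction, and the log2 change was 0.72 (SE 0.25, 95% interval 0.12 to 1.31, unadjusted p = 0.0248). It was 0.86 without both arrays in doubt (adjusted p = 0.365) and 0.43 for the heat map's trio of arrays 6, 7 and 8 (adjusted p = 0.450). Tie1, its partner receptor, differed by 0.45 (95% interval -0.19 to 1.09), Kdr, which encodes VEGFR2, by 0.40 (95% interval -0.37 to 1.18) and Flt1, which encodes VEGFR1, by 0.31 (95% interval -0.42 to 1.04). Flt4, the VEGF-C receptor, was below that mark on all 6 arrays. RG@M-γ-CD replicate 2 was the highest array for Tek, Tie1, Kdr and Flt1.

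Endothelial markers lay on the same side as the receptors. Of 14, 13 could be tested and all 13 were higher in the mean in RG@M-γ-CD, with a median of 0.33 [0.39 and 0.22], and 0 reached an unadjusted p of 0.05. Cldn5, a tight junction protein, differed most (0.78, 95% interval -0.29 to 1.85) and Eng, a TGF-β co-receptor, least (0.030). The mean level of these markers was 0.81, 1.36 and 0.80 in RG@M-γ-CD and 0.70, 1.04 and 0.30 in PBS, so that the groups overlapped. Tie1 belongs to both lists. The part of endothelial content in the receptor values was not tested. Pericyte markers had a median of 0.54 [0.54 and 0.18], with 6 of 7 higher, from Abcc9 (0.89), a potassium channel subunit, to Pdgfrb (-0.096), the PDGF receptor. Lymphatic endothelial markers had a median of -0.023 [1.04 and 1.33], with 3 of 6 higher, from Reln (0.80) to Prox1 (-0.45), a transcription factor also made by some epithelial cells.

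The other ligands of the families numbered 8, of which 5 could be tested, 4 of them higher, with a median of 0.29 [0.86 and -0.27]. Angptl7, a secreted angiopoietin-like protein, was measured at -4.01, -2.32 and -1.71 in RG@M-γ-CD and at -4.55, -4.53 and -3.48 in PBS. RG@M-γ-CD replicate 1 lay within the PBS range. The log2 change was 1.51, but only 1 of the 3 PBS arrays was well above background, so that the gene passed the filter through RG@M-γ-CD alone. The lowest change was that of Angptl8 (-0.36), an inhibitor of lipoprotein lipase in the liver and fat. Class 3 semaphorins, many of which share the neuropilins with the VEGFs, and their plexins had a median of -0.0051 [0.0041 and 0.0039] with 5 of 12 higher. They ran from Sema3e (-0.89, 95% interval -2.23 to 0.45) to Plxna4 (0.65, 95% interval -0.082 to 1.37).

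Genes that respond to VEGF in endothelium had a median log2 change of 0.049 [0.0061 and -0.085], with 11 of 16 higher. They ran from Cxcr4 (-0.37), a chemokine receptor, to Hey1 (0.89, 95% interval -0.59 to 2.36), a Notch target that was at 2.74 on RG@M-γ-CD replicate 3 and at 0.24 on replicate 2. This list holds Pgf, Angpt2, Flt1 and Kdr as well. Endogenous inhibitors of vessel growth had a median of 0.099 [0.051 and 0.31], with 6 of 10 higher. Of these, Adamts1, a protease that binds VEGF-A, was higher on every RG@M-γ-CD array (0.21, 1.33 and 0.58) than on every PBS array (-0.40, -0.23 and -0.12), with a log2 change of 0.96 (95% interval 0.24 to 1.67, unadjusted p = 0.0167). Timp3, which blocks metalloproteases and binds VEGFR2, was likewise higher on every RG@M-γ-CD array (3.66, 3.27 and 3.21 against 2.65, 3.12 and 2.69), by 0.56 (unadjusted p = 0.0363). Of all genes tested, 4.57% had groups that did not overlap, in either direction. In the heat map's grouping Adamts1 and Timp3 both overlapped, with Timp3 at 3.27, 3.21 and 2.65 against 3.66, 3.12 and 2.69. Without both arrays in doubt neither gene overlapped. That comparison holds fewer arrays, so that groups lie apart more readily, and the share over all genes was not counted. Cxcl9, an interferon-induced chemokine, had the lowest change (-1.25, 95% interval -2.79 to 0.29).

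Low oxygen and lipid sensing, the usual inducers of Vegfa and Angptl4, were read from 3 lists. Of 25 hypoxia response genes, 10 had a higher mean in RG@M-γ-CD and 15 a lower one, with a median of -0.051 [-0.19 and -0.20]. Hk2, a hexokinase of glycolysis, was lower on every RG@M-γ-CD array (3.67, 3.15 and 3.23) than on every PBS array (4.06, 4.01 and 4.36), by a log2 change of -0.79 (95% interval -1.28 to -0.30, unadjusted p = 0.00695). Such a lack of overlap held for 4.57% of all genes, in either direction. In the heat map's grouping Hk2 overlapped, at 3.15, 3.23 and 4.06 against 3.67, 4.01 and 4.36. Pfkfb3, a regulator of glycolysis, changed by -0.92 (95% interval -1.74 to -0.10, unadjusted p = 0.0336), and the highest change was that of Ankrd37 (0.25). The HIF regulators had a median of 0.060 [-0.036 and -0.13] with 6 of 10 higher, from Hif1a (-1.47), which stood at -0.49 on RG@M-γ-CD replicate 2 and between 3.67 and 4.37 on the other 5 arrays, to Hif3a (0.46). The list of PPAR response genes holds the lipid-sensing receptors Ppara, Ppard and Pparg beside targets, which include those co-regulated with Angptl4. Its median was 0.21 [0.068 and -0.12] with 10 of 13 higher. The changes ran from the receptor Ppard (-0.17) to Cd36 (0.70, 95% interval -0.48 to 1.88), a fatty acid transporter.

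**Figure D4:**
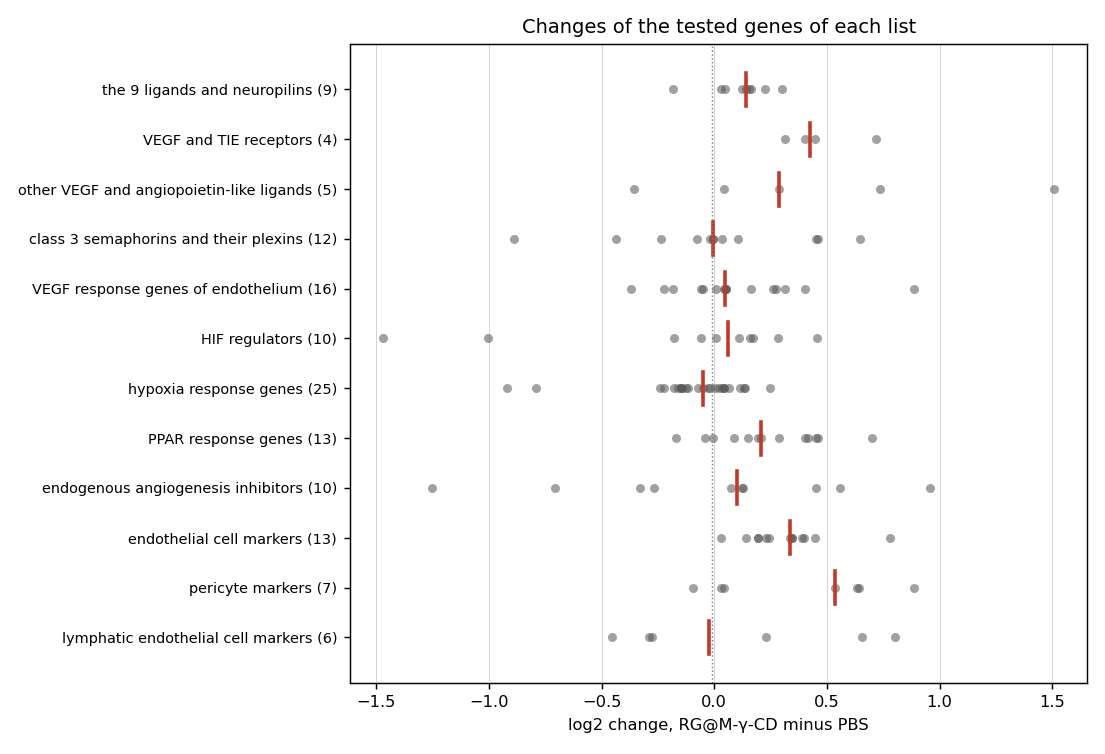
Log2 change, RG@M-γ-CD minus PBS, of each tested gene (grey points) of the 9 ligands and neuropilins and of each pathway or vessel cell list; the number tested stands in brackets, red bars are list medians and the dotted line is the median of all genes tested (-0.012). The receptors and the endothelial markers lie wholly to the right of 0, with medians of 0.43 and 0.33, and the hypoxia response genes spread to both sides.

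Markers of several cell types differed widely between the mice, with mean levels of a list that spanned 1.06 (fibroblasts) to 3.06 (smooth muscle) over the 6 arrays. Smooth muscle markers had a mean level of 2.66, 5.41 and 5.73 in RG@M-γ-CD replicates 1, 2 and 3 and of 3.81, 3.44 and 3.76 in PBS replicates 1, 2 and 3. All 7 were higher in the mean, with a median of 0.95 [2.02 and 1.71], and changes from 0.78 (Cnn1) to 1.1 (Synpo2). Enteric neuron and glia markers ran the same way (-2.30, -0.37 and -0.21 against -1.69, -1.58 and -1.19, median 0.56 [1.23 and 1.11], 7 of 7 higher, the lowest Ret at 0.022), and so did fibroblast markers (2.16, 3.21 and 3.22 against 2.70, 2.78 and 2.69, median 0.069 [0.31 and 0.26], 5 of 7 higher, from Pdgfra at -0.26 to Lum at 0.87). In these lists RG@M-γ-CD replicate 1 was the lowest array and replicates 2 and 3 the highest, as for Angpt1. Macrophage markers ran the other way (1.85, 0.79 and 0.78 against 1.77, 1.49 and 1.78), with 9 of 9 tested lower and a median of -0.54 [-0.93 and -0.63], from Lyz2 (-0.82) to Cd68 (-0.22), and Cd14 at an unadjusted p of 0.0486 (-0.41). Neutrophil markers had a mean level of 0.98, -1.33 and -0.80 against 0.70, 0.017 and 0.82 and a median of -0.53 [-1.07 and -1.11] with 5 of 7 lower. They ran from S100a8 (-2.52) to Camp (0.54), which was well above background on 3 RG@M-γ-CD arrays and 2 PBS arrays. RG@M-γ-CD replicate 1 was the highest array and replicates 2 and 3 the lowest for both, as for Pgf. The part of cell content in the ligand values was not tested.

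**Figure D5:**
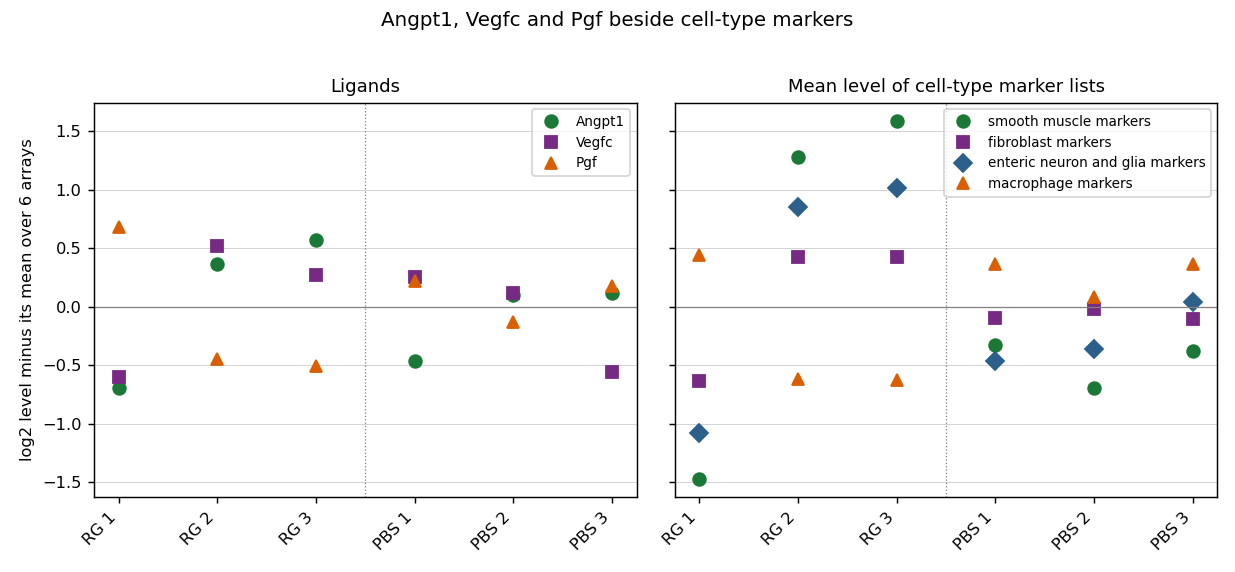
Left, log2 level of Angpt1, Vegfc and Pgf on each array minus the gene's mean over the 6 arrays; right, the same for the mean level of 4 lists of cell-type markers. RG are RG@M-γ-CD and PBS the control arrays, 1 point per array. Angpt1 and the smooth muscle, fibroblast and glia markers are lowest on RG 1 and highest on RG 2 and 3, and Pgf and the macrophage markers are highest on RG 1 and lowest on RG 2 and 3.

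The remaining lists of cell-type markers were read in the same way. Epithelial markers had a median of 0.020 [-0.13 and -0.20] with 6 of 10 higher, from Krt18 (-0.25) to Cdx1 (0.22). B and T cell markers were lower in 6 of 6 tested, with a median of -0.50 [-0.64 and -0.25], from Cd3d (-0.77) to Cd3e (-0.37). Of 7 squamous markers 4 were tested, with a median of -0.43 [-0.13 and -0.23], from Krt6a (-0.73, unadjusted p = 0.00745) to Krt10 (0.046). Krt6a was measured at 0.47, 0.28 and 0.18 in RG@M-γ-CD and at 1.21, 1.18 and 0.74 in PBS. The groups did not overlap, as in 4.57% of all genes in either direction. PBS replicate 1, its highest array, is in doubt, and in the heat map's grouping Krt6a overlapped. Of 7 adipocyte markers 3 were tested, with a median of 0.076 [0.46 and 0.18], from Lep (-0.072) to Cidec (0.96), and the defining markers Adipoq and Plin1 were not tested. Of 7 pancreatic acinar markers 4 were tested, with a median of -1.73 [-3.19 and -1.30]. Cela1 had the highest change (0.17). Prss2 was well above background on 0 RG@M-γ-CD arrays and passed the filter through PBS alone. It lay at -0.28 on PBS replicate 2 and at -3.05 and -4.34 on PBS replicates 1 and 3. With the dim arrays set as for Vegfc, its PBS mean was 3.43-fold above that of RG@M-γ-CD, a bound that leans on PBS replicate 2.

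Genes whose values ran most like those of a ligand or neuropilin over the 6 arrays were sought among 18111 genes well above background on all of them. The Pearson r of the closest lay between 0.983 and 0.997. With 6 arrays such values are common: the number of genes with r above 0.9 was 44 for Vegfa, 71 for Angptl4, 144 for Angpt2, 150 for Nrp1, 183 for Vegfc, 260 for Nrp2 on its brightest probe, 341 for Pgf, 389 for Vegfb and 460 for Angpt1. The closest pairs of genes with a symbol were Tacc2 and Cdc14b for Vegfb, Srrm4 and Tnk2 for Vegfc, Prodh and Alox5ap for Pgf, and Dusp18 and Plce1 for Angpt1. For Angpt2 they were Slc44a2 and Trit1, for Angptl4 Mettl10 and Slc22a4, and for Nrp1 Ctse and Ddc. For Nrp2, on the probe with the GT repeat, they were Zcchc9 and Zc4h2. For Vegfa Gm12758 was the closest gene with a symbol. These are descriptions over 6 points that share 2 groups and 1 slide.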

How the data were processed

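RNA of colon tissue with tumors from 6 mice was labelled with Cy3 and hybridized to one-color Agilent arrays on 1 slide. The authors deposited, per array, the intensity of each spot from Agilent Feature Extraction 10.7.1.1 (background-subtracted, with no scaling across arrays), and a log2 value table whose 6 columns share a median of 4.83, a minimum of 2.04 and a maximum of 18.1; its normalization method is not given in the sources used here. Samples were grouped by GEO's labels.

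In R 4.3.3, control and outlier spots were left out, spots of a probe averaged, and the array's 75th percentile of log2 intensity subtracted. A probe was well above background when at least 0.5 of its spots carried the scanner's mark. Probes so marked on every array of the RG@M-γ-CD or of the PBS group were fitted with limma 3.58.1 (lmFit, eBayes), a gene on its brightest probe, with Benjamini-Hochberg adjustment over all 19090 genes (probes: 28291). Of all probes 58.3% took their symbol through an accession in the reference gene table, the others kept the array's name. The fit was tested on simulated data. The 9 genes and the 21 lists (202 genes) were chosen with earlier results of these data known. Named are all 9 genes and the receptors, of every other list the highest and lowest change and any gene at an unadjusted p below 0.05, and the 2 genes most like each of the 9. 1 gene that this rule names and 1 probe sequence are not reported here. The number of arrays and the signal over background limit the precision. Each mouse gave 1 array; nothing in the labels states separate cages or extraction days. Replicate numbers did not pair the samples: deviations of same-numbered arrays correlated at -0.25, -0.23 and 0.14. Alternatives were other normalizations, filters and probe rules, the authors' table, the methods' test, blocks, the heat map's grouping and left-out arrays.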

Additional observations from a re-analysis of the deposited data

How the results depend on the processing

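Of 162 changes of the 9 genes under the alternatives, 0 passed an adjusted p of 0.05, 139 kept their sign and 23 reversed it. With the mean of a gene's probes, Vegfa was -0.018 and Vegfc -0.14 (log2 change), the latter with its dim internal probe included. With the row of the slide as a block, 4 of the 9 genes were higher, against 63.5% of all genes. Vegfa was then -0.20, Vegfc -0.19, Angpt2 -0.10 and Nrp2 -0.0025. These are also the values within the row that holds both groups, where PBS replicate 1 is the only control. With normexp background correction Angpt1 was -0.0080. For arrays 6, 7 and 8 less the other trio, Vegfb was -0.025, Angpt2 -0.11, Angptl4 -0.048 and Nrp2 -0.075. In that grouping 4 of the 9 genes were higher, against 36.2% of all genes. Of the 9, 1 was at an unadjusted p below 0.05, against 3193 of 19298 genes tested. Without both arrays in doubt Angpt2 was -0.046 and Nrp2 -0.033. Leaving out each array in turn, Vegfa lay between -0.030 (without PBS replicate 2) and 0.34, Vegfc between -0.12 (without PBS replicate 3) and 0.46, Pgf between -0.57 and 0.027 (without RG@M-γ-CD replicate 3), Angpt1 between -0.082 (without RG@M-γ-CD replicate 3) and 0.55, Angpt2 between -0.12 (without RG@M-γ-CD replicate 1) and 0.18 and Nrp2 between -0.050 (without RG@M-γ-CD replicate 1) and 0.13. Between 5 and 8 of the 9 genes were then higher, against 38.8% to 59.8% of all genes, and 0 or 1 was at an unadjusted p below 0.05. Vegfb, Angptl4 and Nrp1 kept their sign in all 6 of these fits.

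Over all genes, 5 passed an adjusted p of 0.05 for arrays 6, 7 and 8 less the other trio, and between 0 and 202 with 1 array left out, the highest without RG@M-γ-CD replicate 1. At an unadjusted p below 0.05 there were 779 genes with no filter on dim probes (more genes were tested), 3193 for the heat map's trio, 2407 without both arrays in doubt, and between 241 and 2428 with 1 array left out. The replicate numbers did not pair the arrays. With the replicate number as a block, 464 genes were at an unadjusted p below 0.05, 0 passed the adjusted threshold, and the Nrp2 probe A_52_P93910 had the same change of 0.68 at an unadjusted p of 0.0203. No array was left out of the labelled comparison. The cause of these shifts was not tested. With 3 arrays a group the intervals of the 9 genes span 0.78 to 1.77 on the log2 scale, and 8 of the 23 probes were too dim to test.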
